A study of Mus musculus with 16 samples.

Results

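The 7 genes examined respond to fasting and are targets of the PPAR receptors in muscle, and were followed here through the left ventricles of 16 mice: Pdk4, Angptl4, Ucp3, Acot1, Acot2, Cpt1a and Plin5. They were chosen by gene symbol, and all 7 were found among the 24982 entries of the count table. All 7 were also among the 13775 genes that passed the filter on low counts.

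The mice were C57BL/6, 1 library of total RNA was made per mouse, and a library therefore stands for an animal. The Tln1 CF knockout group held 8 mice that, by their labels, lack Tln2 and in addition carry a deletion of Tln1 in CF (cardiac fibroblasts, as the study is known to mean and the labels do not spell out), and the Tln2-null group held 8 mice that lack Tln2 alone. Each group had 4 males and 4 females. Every mouse received tamoxifen by intraperitoneal injection for 5 days and, beginning 2 weeks later, angiotensin II (AngII, a hormone that raises blood pressure) from an osmotic pump for 8 weeks. Lack of Tln2, tamoxifen and AngII were thus shared by both groups, and no untreated or Tln2-carrying mice were analysed here. The Cre driver, the ages and the feeding state at collection are not stated in the labels.

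PPARs are nuclear receptors that fatty acids activate. Paired with RXR receptors they bind DNA at repeats of the hexamer AGGTCA separated by a single base, an arrangement called DR1. When food is withheld and fatty acids reach the heart, the genes they control shift fuel use away from glucose: Pdk4 blocks the entry of pyruvate into the citric acid cycle, Cpt1a lets long-chain fatty acids into mitochondria, Acot1 and Acot2 split acyl-CoA, Plin5 coats lipid droplets and Angptl4 holds back lipoprotein lipase outside the cell.

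Start-site sequences were available for 6 of the 7 genes in RefSeq (GRCm38.p6), from 250 bases before to 50 after the transcript start. The promoters of the 2 closest pairs in the data below are shown, Pdk4 with Ucp3 and Acot1 with its neighbour Acot2. Capitals mark AGGTCA, and the DR1-like stretch that ends in it.
Pdk4 promoter, chr6:5496229-5496528 (minus strand): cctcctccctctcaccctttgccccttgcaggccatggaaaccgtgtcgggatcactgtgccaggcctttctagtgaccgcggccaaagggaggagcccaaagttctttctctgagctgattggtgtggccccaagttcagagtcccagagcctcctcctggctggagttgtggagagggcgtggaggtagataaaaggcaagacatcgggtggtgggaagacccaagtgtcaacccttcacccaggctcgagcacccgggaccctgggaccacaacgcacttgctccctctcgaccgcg
Ucp3 promoter, chr7:100472741-100473040 (plus strand): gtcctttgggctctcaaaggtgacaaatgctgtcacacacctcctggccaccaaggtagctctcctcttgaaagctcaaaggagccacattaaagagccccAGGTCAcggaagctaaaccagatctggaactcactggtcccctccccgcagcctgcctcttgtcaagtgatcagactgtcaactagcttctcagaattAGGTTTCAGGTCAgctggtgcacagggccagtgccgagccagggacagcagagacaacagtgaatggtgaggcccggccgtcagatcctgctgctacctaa
Acot1 promoter, chr12:84009252-84009551 (plus strand): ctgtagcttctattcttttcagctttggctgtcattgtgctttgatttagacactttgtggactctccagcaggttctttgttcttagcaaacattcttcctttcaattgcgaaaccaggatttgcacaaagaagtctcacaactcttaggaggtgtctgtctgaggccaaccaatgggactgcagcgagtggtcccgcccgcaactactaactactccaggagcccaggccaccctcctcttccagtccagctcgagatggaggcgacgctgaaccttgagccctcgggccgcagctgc
Acot2 promoter, chr12:83987611-83987910 (plus strand): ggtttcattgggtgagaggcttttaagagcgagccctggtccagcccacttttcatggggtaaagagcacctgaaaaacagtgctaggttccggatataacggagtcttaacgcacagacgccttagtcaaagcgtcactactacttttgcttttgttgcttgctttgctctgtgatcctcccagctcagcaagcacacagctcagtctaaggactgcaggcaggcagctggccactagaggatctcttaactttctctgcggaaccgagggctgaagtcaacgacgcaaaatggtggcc
Neither strand of any of the 6 promoters held the full DR1, AGGTCA then any base then AGGTCA, which 0.0399% of the 32544 promoters in the table held. With up to 2 mismatches, a form that 3.87% of all promoters held, it was found in Ucp3 alone, as AGGTTTCAGGTCA at position -51 from the start. AGGTCA on either strand, present in 16.2% of all promoters, stood in Ucp3 at -149 and, inside the DR1-like stretch, at -44. It also stood in Cpt1a at -94 on the minus strand, and in the pair of Plin5 promoters at -170 and at 14. The windows of Pdk4, Acot1 and Acot2 held none of these motifs, and CACGTG, present in 7.17% of all promoters, was in none of the 6 genes' windows. These matches describe letters only and show no binding.

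Per library the counts summed to between 11161766 and 19221673, and a gene with 0 counts could still have stood at 0.156 to 0.269 CPM, the worth of 3 counts, counting error alone considered. CPM are counts relative to the library size, scaled by TMM. Cardiomyocyte markers summed to a median of 72700 CPM in the knockout and 68000 CPM in the Tln2-null mice, while 6 atrial markers summed to 306 to 1250 CPM in the knockout (median 782) and 445 to 1920 CPM in the Tln2-null mice (median 1130), nearly all of it Nppa (mean 925 CPM over the 16 mice), which stressed ventricle also expresses. Nr2f2 averaged 17.1 CPM, Myl4 2.98 CPM and Myl7 0.161 CPM, and Sln and Bmp10 had a median of 0. Tln1 measured 220.9 to 322.8 CPM in the knockout and 250.7 to 322.4 CPM in the Tln2-null mice. Tln2 measured 62.4 to 70.4 CPM in the knockout and 55.6 to 76.8 CPM in the Tln2-null mice. Counts over whole genes in whole tissue check neither deletion. Knockout replicate 8 and Tln2-null replicate 8 stood apart in clock genes, with 27.14 and 28.42 CPM of Arntl against 3.661 to 8.436 CPM in the other 14 mice. Reads of Y-linked genes above 1% of the male mean were present in 4 females, 3 of them knockout and 1 Tln2-null.

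The 7 transcripts spanned a wide range of abundance. Per kilobase of exon, the median over the 16 mice was 187 CPM for Pdk4, the most abundant, and 82.4 CPM for Plin5. Acot2 followed at 44.8 CPM and Ucp3 at 36.5 CPM per kilobase. Cpt1a had 16.7, Acot1 6.85 and Angptl4 2.92 CPM per kilobase. The order was not equally firm at each step. Pdk4 exceeded Plin5, and Plin5 exceeded Acot2, in 16 of 16 mice, Acot2 exceeded Ucp3 in 13, and each later step held in 15. Among relatives of the members on the same per-kilobase scale, Pdk2, a constitutive heart pyruvate dehydrogenase kinase, had a median of 232 CPM, above that of Pdk4, while the other droplet coat genes Plin3, Plin4 and Plin2 stood at 67.8, 57.7 and 41.3 CPM, below Plin5. Cpt1b, the muscle form of carnitine palmitoyltransferase, was listed at 1.08 CPM per kilobase, but 81.4% of its exonic bases also belong to the gene Gm44502 on the same strand in GENCODE M21, so its level is uncertain. Acot1 and Acot2 are uncertain too: 24.5% of the 50-base stretches of Acot2 transcripts also occur in Acot1, and 13.6% of those of Acot1 in Acot2.

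Comparing the genotypes asks whether ventricles of mice that also lack Tln1 in fibroblasts differ in these fuel-switch transcripts under AngII. None of the 7 passed the test. In edgeR's quasi-likelihood test, with sex as a term, 0 members were called at an adjusted p (Benjamini-Hochberg) under 0.05, where 0% of the 13775 genes were called (0 genes), and 0 members had an unadjusted p under 0.05, where 5.08% of all genes did. DESeq2, limma-voom and limma on the deposited normalized values also called 0 members, and over all genes they called 17, 11 and 0. The intervals were wide for the 4 most variable genes and narrower for the other 3, as the following values show.

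Pdk4 (chromosome 6, 5483351 to 5496278 in GRCm38.p6), the kinase that inactivates pyruvate dehydrogenase, had 316.7 to 1017 CPM in the knockout mice, with a median of 733.1 CPM, and 238.3 to 2960 CPM in the Tln2-null mice, with a median of 603.3 CPM. All 8 knockout mice lay inside the Tln2-null range, and the top of that range was 1 male, replicate 1, with 2960 CPM, where the next Tln2-null mouse had 951.7 CPM. The means were 670.3 ± 255.7 CPM in the knockout and 874.1 ± 877.9 CPM in the Tln2-null mice (SD, n = 8 each). On the log2 scale the difference was -0.26 ± 0.41 (SE; 95% interval -1.07 to 0.55; edgeR adjusted p = 0.967). Without Tln2-null replicate 1 the log2 fold change was 0.22.

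Ucp3 (chromosome 7, 100472991 to 100486432), an uncoupling protein of the inner mitochondrial membrane, ran from 49.8 to 163.2 CPM in the knockout, with a median of 84.23 CPM, and from 28.58 to 338.8 CPM in the Tln2-null mice, with a median of 89.35 CPM. Again the knockout mice all lay inside the Tln2-null range, whose top was replicate 1. Means were 92.7 ± 34.71 CPM in the knockout and 103.1 ± 99.54 CPM in Tln2-null mice (SD, n = 8 each). The log2 fold change was -0.03 ± 0.40 (SE; edgeR adjusted p = 0.998) over all mice and 0.42 without Tln2-null replicate 1.

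Cpt1a (chromosome 19, 3322326 to 3385735) is the liver form of the enzyme that starts mitochondrial import of long-chain fatty acids. Its SD between mice (log2 CPM, genotype and sex means removed) was the lowest of the 7. It was still above that of 87.2% of the 9331 genes at 10 CPM or more. Cpt1a had 60.71 to 92.47 CPM in the knockout (median 76.13 CPM) and 56.64 to 103.7 CPM in the Tln2-null mice (median 69.14 CPM). On the log2 scale the difference, 0.03 ± 0.12 (SE; edgeR adjusted p = 0.989), had a 95% interval of -0.20 to 0.26, the narrowest of the 7.

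The thioesterases, Acot1 in the cytosol (chromosome 12, 84009502 to 84017670) and Acot2 in mitochondria (chromosome 12, 83987861 to 83993877), lie side by side on the same strand. Acot1 had 10.45 to 27.93 CPM in the knockout (median 13.59 CPM) and 9.272 to 61.54 CPM in the Tln2-null mice (median 17.33 CPM). Acot2 had 80.22 to 131.4 CPM in the knockout (median 95.46 CPM) and 64.97 to 147.2 CPM in the Tln2-null mice (median 98.59 CPM). In both, the knockout values lay inside the Tln2-null range in 8 of 8 mice. The log2 fold change was -0.41 ± 0.33 for Acot1 and -0.01 ± 0.13 for Acot2 (SE; edgeR adjusted p = 0.942 and 0.996). Without Tln2-null replicate 1 these were -0.02 and 0.08.

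Angptl4 (chromosome 17, 33774900 to 33781575), the secreted inhibitor of lipoprotein lipase, had 4.79 to 24.27 CPM in the knockout (median 10.91 CPM) and 5.162 to 51.88 CPM in the Tln2-null mice (median 7.815 CPM). Knockout mice lay inside the Tln2-null range in 7 of 8 cases, and 1 lay just below it. The log2 fold change was -0.07 ± 0.48 (SE; edgeR adjusted p = 0.995), the least precise of the 7, and 0.285 without Tln2-null replicate 1.

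Plin5 (chromosome 17, 56111597 to 56117606), the lipid droplet coat protein of oxidative tissues, had 142.9 to 186.3 CPM in the knockout (median 166 CPM) and 138.7 to 260.7 CPM in the Tln2-null mice (median 176.9 CPM). The 3 highest values, 260.7, 234.2 and 209 CPM, were all from Tln2-null mice, yet the rest of the 2 groups overlapped throughout. The log2 fold change was -0.15 ± 0.12 (SE; edgeR adjusted p = 0.942). With the title number as a covariate, the log2 fold changes of Pdk4, Angptl4, Ucp3 and Acot2 were positive, at 0.15, 0.12, 0.36 and 0.02, and did not pass either. In bulk tissue, fewer cells of a type and less RNA per cell cannot be told apart, here or in any value given.

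**Figure D1:**
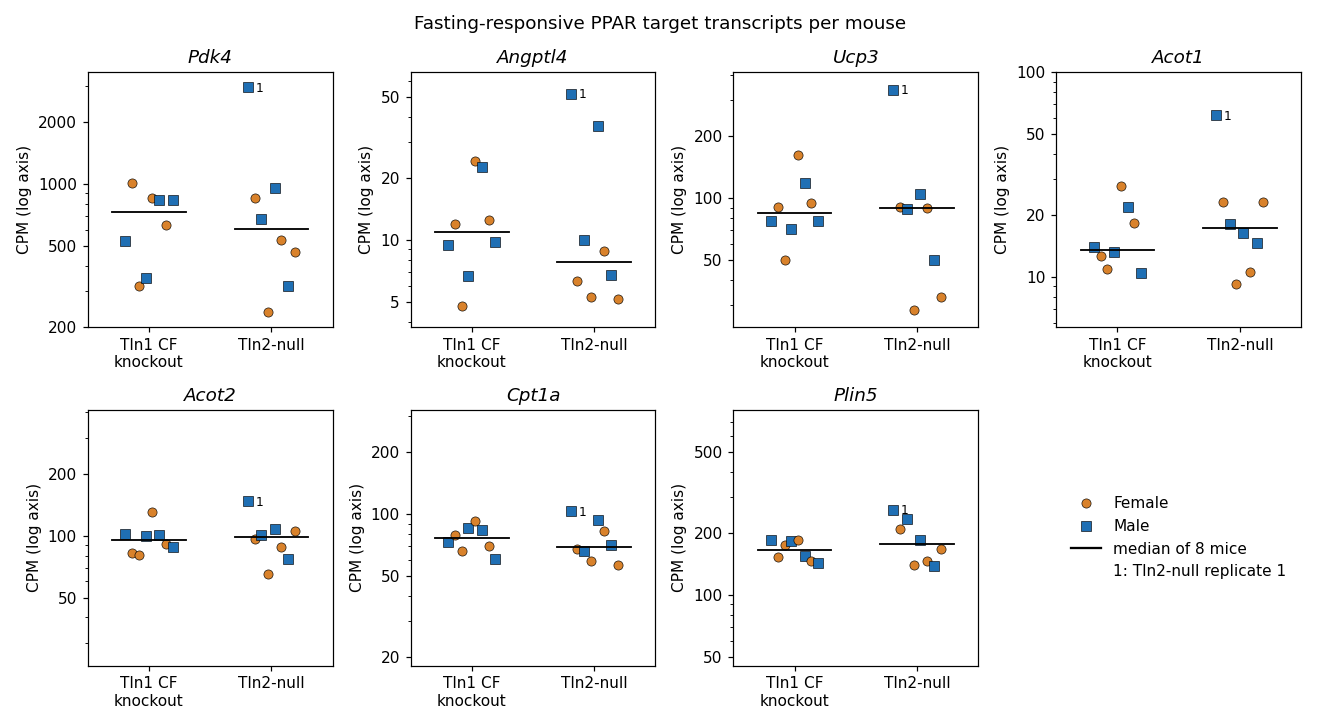
CPM (log axis) of each of the 7 transcripts per mouse, Tln1 CF knockout on the left and Tln2-null on the right; circles are females, squares males, bars the median of 8 mice, and the vertical axes cover the same fold range. The groups overlap in every panel, and Tln2-null replicate 1 (marked 1) is the highest mouse in all 7, at 2960 CPM for Pdk4 and 338.8 CPM for Ucp3.

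Beside these values, markers of fibroblasts, the cells named in the deletion, summed to 2390 to 4140 CPM in the knockout (median 2950) and 3090 to 4500 CPM in the Tln2-null mice (median 3780), and 12 of 12 were lower, 8 of them at an unadjusted p under 0.05 and 0 at an adjusted p. Cardiomyocyte markers were higher in 12 of 12, 3 at an unadjusted p under 0.05. The part of this in the members' values was not tested.

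Split by sex, all members but Plin5 had opposite signs in males and females, with Acot1 at only 0.08 ± 0.45 (SE) in females. In males all 7 were lower in the knockout (Ucp3 and Acot2 higher without Tln2-null replicate 1), and in females all but Plin5 were higher (Acot1 and Acot2 lower, or Plin5 higher, with some single libraries left out), but 0 members were called in either sex, where 0% of genes were called, and 0 had an unadjusted p under 0.05, against 6.07% of all genes in males and 3.31% in females. Angptl4 showed the widest split. Knockout females had 12, 4.79, 24.27 and 12.57 CPM, against 6.327, 5.307, 8.867 and 5.162 CPM in Tln2-null females. Of the 4 knockout females, 3 lay above every Tln2-null female and 1 below every one. Knockout males had 9.516, 6.645, 22.61 and 9.821 CPM, against 51.88, 10.02, 36.19 and 6.763 CPM in Tln2-null males. The male groups overlapped, and 2 Tln2-null males held the highest values of all mice. The log2 fold change of Angptl4 was 1.06 ± 0.58 in females (edgeR adjusted p = 1) and -1.11 ± 0.56 in males (adjusted p = 0.775). The female value was 0.60 without knockout replicate 5 and 0.44 with limma-voom and quality weights.

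The difference between the sexes in the genotype effect, tested directly, was positive for all 7 members, from 0.26 to 2.17 on the log2 scale (female minus male), Acot2 alone turning to -0.09 without the females with Y-linked reads, with 0 called and 0% of genes called. It was positive in 51.1% of all genes tested. Angptl4 alone had an unadjusted p under 0.05, as 4.27% of all genes did: 2.17 ± 0.81 (SE, unadjusted p = 0.0154 in edgeR, adjusted p = 0.98). The male values moved with a single mouse. Without Tln2-null replicate 1 the male log2 fold change of Pdk4 was -0.03, where it had been -0.95 ± 0.54 with all mice. That of Ucp3 was 0.08 against -0.76 ± 0.50 with all mice, and that of Acot1 was -0.13 against -0.89 ± 0.45. That of Angptl4 was -0.54. The difference between the sexes was then 1.60 for Angptl4, 0.46 for Pdk4 and 0.63 for Ucp3, where it had been 2.17, 1.38 and 1.47 with all mice. With limma-voom and quality weights on all mice it was 0.98, 0.42 and 0.65.

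Other gene lists moved beside the members in this difference between the sexes, each with 0 genes called. It was positive in 23 of 26 FoxO and glucocorticoid genes (5 at an unadjusted p under 0.05), 6 of 6 tested adipocyte markers (2, Lipe and Car3) and 10 of 10 macrophage markers (2), and negative in 12 of 12 cardiomyocyte markers (2). The other PPAR target genes were split, with 14 positive and 16 negative. Adipocyte markers summed to 116 to 125 CPM in knockout females and 94 to 111 CPM in Tln2-null females, and to 103 to 129 CPM in knockout males and 107 to 205 CPM in Tln2-null males. Macrophage markers summed to medians of 488 CPM in knockout females and 453 CPM in Tln2-null females, and of 450 CPM in knockout males and 486 CPM in Tln2-null males, with overlapping ranges. Cardiomyocyte markers summed to 63100 to 73200 CPM in knockout females and 66500 to 70900 CPM in Tln2-null females, and to 72300 to 75500 CPM in knockout males and 65100 to 68200 CPM in Tln2-null males. The cardiomyocyte sums thus did not overlap between the male groups, while the other pairs of sums overlapped except those of adipocyte markers in females. The adipocyte sum was mostly Lipe, Thrsp and Aqp7, with means of 68, 31.7 and 17.9 CPM over the 16 mice. Adipoq averaged 0.257 CPM and Cidec 0.42 CPM, so the sum does not measure fat cells alone. The part of these lists in the members' values was not tested.

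Pdk4 in knockout females measured 1017, 316.7, 851.1 and 631.4 CPM, against 852.5, 238.3, 531.7 and 466.8 CPM in Tln2-null females. Ucp3 measured 90.84, 49.8, 163.2 and 94.35 CPM in the same knockout females, against 91.05, 28.58, 89.92 and 33.09 CPM in the Tln2-null females. Both overlapped between the female groups, and neither difference passed (log2 fold change 0.43 ± 0.54 for Pdk4 and 0.71 ± 0.51 for Ucp3, edgeR adjusted p = 1 each). With 1 library left out these ran from 0.19 (without Tln2-null replicate 4) to 0.78 (without Tln2-null replicate 2) for Pdk4 and from 0.37 (without knockout replicate 5) to 0.98 for Ucp3, and limma-voom with quality weights gave 0.11 for Pdk4. Between the sexes, over both genotypes, all 7 were lower in females, at -0.16 to -0.93 on the log2 scale, though without Tln2-null replicate 1 Acot1 was 0.12, Pdk4 -0.07, Ucp3 -0.08 and Angptl4 -0.59, where they had been -0.27, -0.54, -0.52 and -0.93. Of these 0 were called (edgeR adjusted p = 1), where 0.0871% of genes were, and 0 had an unadjusted p under 0.05, where 3.69% of genes did. Among all genes tested 49.6% were higher in females.

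**Figure D2:**
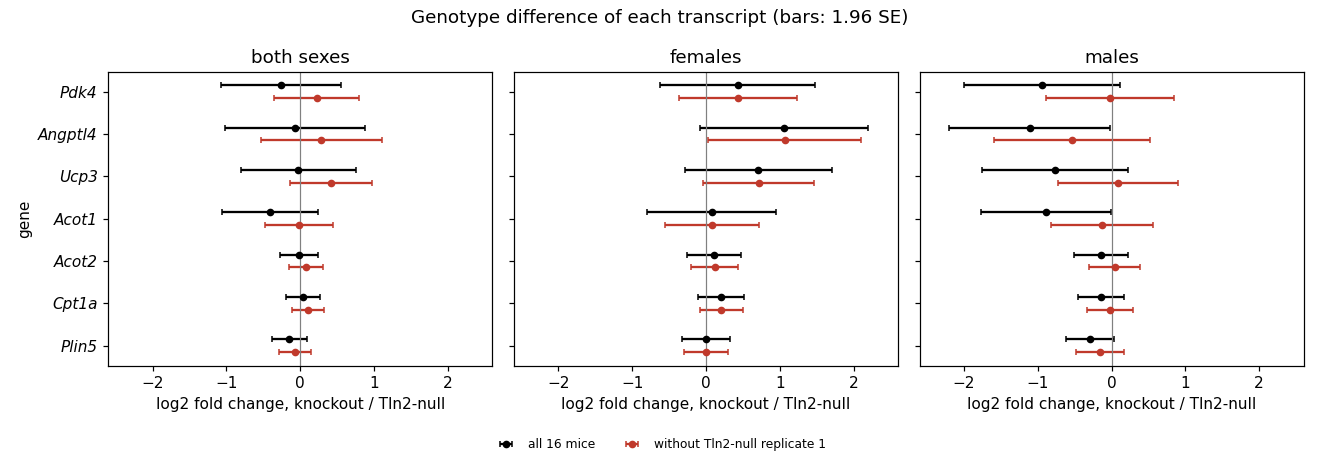
Log2 fold change of each transcript, Tln1 CF knockout over Tln2-null, in both sexes, in females and in males. Black is all 16 mice and red leaves out Tln2-null replicate 1. Bars are approximate 95% intervals, taken from the SE by a normal curve, and are narrower than the test implies. In males the black bars of Angptl4 (-2.2 to -0.018) and Acot1 (-1.767 to -0.0095) leave out 0, though their unadjusted p values were 0.063 and 0.064 in edgeR. In males the black points of Pdk4, Ucp3 and Acot1 lie at -0.95, -0.76 and -0.89, and the red ones close to 0.

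Tln2-null replicate 1, on which several of these directions turned, was a male and carried title number 1. It was the highest of the 16 mice for all 7 transcripts, where 12.1% of the 12010 genes at 2 CPM or more were highest in it. Its level over the median of the other 15 mice was 4.69-fold for Pdk4, 5.45-fold for Angptl4, 4.21-fold for Acot1 and 3.82-fold for Ucp3. For Plin5, Acot2 and Cpt1a it was 1.56-, 1.52- and 1.46-fold. The excess in this mouse was thus several-fold for 4 members and small for 3.

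Genes outside the set were also high in that mouse. Ehhadh, a peroxisomal beta-oxidation enzyme, stood at 78.3 CPM, 3.33-fold over the median of the others. Of a list of 26 genes that FoxO factors and glucocorticoids control in fasting, 15 were highest in it (57.7%), among them the muscle ubiquitin ligase gene Fbxo32 at 2.05-fold and the thioredoxin-binding Txnip at 2.27-fold. Of 29 other PPAR target genes of lipid handling 9 were highest in it (31%), and of 19 clock genes 4 (21.1%). Ppara itself was not high there, with 109.6 CPM, rank 12 of 16. Adipocyte markers summed to 205 CPM in this mouse and to 94 to 137 CPM in the others, and 134 CPM of the sum was Lipe, which the lipolysis list also holds (49.07 to 74.1 CPM in the others). Of the 11 markers in the table, Lipe, Aqp7 and Thrsp were highest in this mouse. The fat cell genes Adipoq (0.0534 CPM, the lowest of the 16 mice), Cidec (0.107 CPM, rank 15), Car3 (0.961 CPM, rank 11) and Cfd (0.907 CPM, rank 9) were not high in it, and Lep was 0. The mouse was singled out after its values were seen.

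At the other end, Tln2-null replicate 4, a female, was among the 3 lowest mice for all 7 members and the lowest for 4. Knockout replicate 5, a female, was among the 3 highest for 5 members, and Tln2-null replicate 5, a male, for 4. Each of these mice was high or low for most members at once. The 2 libraries apart in clock genes lay inside the range of the other 14 mice for each member, except that Cpt1a, at 56.64 CPM in Tln2-null replicate 8, was the lowest of all. Pdk4 was 834.9 CPM in knockout replicate 8 and 466.8 CPM in Tln2-null replicate 8.

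**Figure D3:**
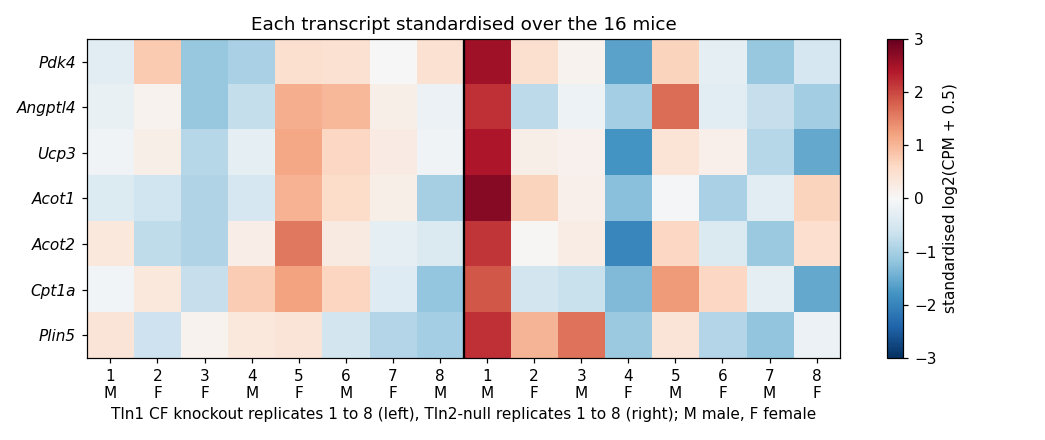
The 7 transcripts (rows) in each mouse (columns), as log2(CPM + 0.5) standardised over the 16 mice; knockout replicates 1 to 8 are left of the line and Tln2-null replicates 1 to 8 right of it. Tln2-null replicate 1 is high and Tln2-null replicate 4 low in all 7 rows, and no row separates the genotypes.

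With the mean of each genotype and sex removed, the SD of log2(CPM + 0.5) between mice was 0.916 for Angptl4, 0.906 for Pdk4, 0.826 for Ucp3 and 0.69 for Acot1. The median over the 9331 genes at 10 CPM or more was 0.145. Among those genes they held ranks 23, 27, 31 and 54 from the top. Acot2, Plin5 and Cpt1a had SDs of 0.299, 0.268 and 0.252, at ranks 730, 1019 and 1191. Without Tln2-null replicate 1 the SD of Pdk4 was 0.725, still above that of 99.6% of the genes, that of Ucp3 0.661 and that of Acot1 0.528.

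The members varied together across mice. Over the 21 pairs, Pearson's r of log2(CPM + 0.5) with genotype and sex means removed ran from 0.28 to 0.879 with a median of 0.707 (16 mice), and Spearman's rho from 0.203 to 0.891 with a median of 0.618. These are descriptions over mice that share libraries, depth and, for Acot1 and Acot2, transcript sequence. The closest pair was Pdk4 with Ucp3, at r = 0.879, followed by Acot1 with Acot2 at 0.863, Angptl4 with Ucp3 at 0.823 and Pdk4 with Angptl4 at 0.802. Plin5 was loosest, with r = 0.28 to Angptl4 and 0.314 to Cpt1a. The relation rested in part on 1 mouse: without Tln2-null replicate 1 the median was 0.498 and 10 of 21 pairs stayed above 0.5, where 17 had been. Without the 2 mice farthest from the median of the pair's first gene, in the order the genes are listed at the start, the median was 0.471, and Angptl4 with Plin5 turned to -0.291. Pdk4 with Ucp3 kept 0.793 and Acot1 with Acot2 0.807 without Tln2-null replicate 1.

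Both genotypes showed the pattern. The median r over the pairs was 0.662 within the 8 knockout mice, where 18 of 21 pairs were positive. It was 0.775 within the 8 Tln2-null mice and 0.583 in the 7 without replicate 1. Within females it was 0.593 and within males 0.752, or 0.516 for males without Tln2-null replicate 1. With the title number also removed it was 0.706 over all 16 mice.

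**Figure D4:**
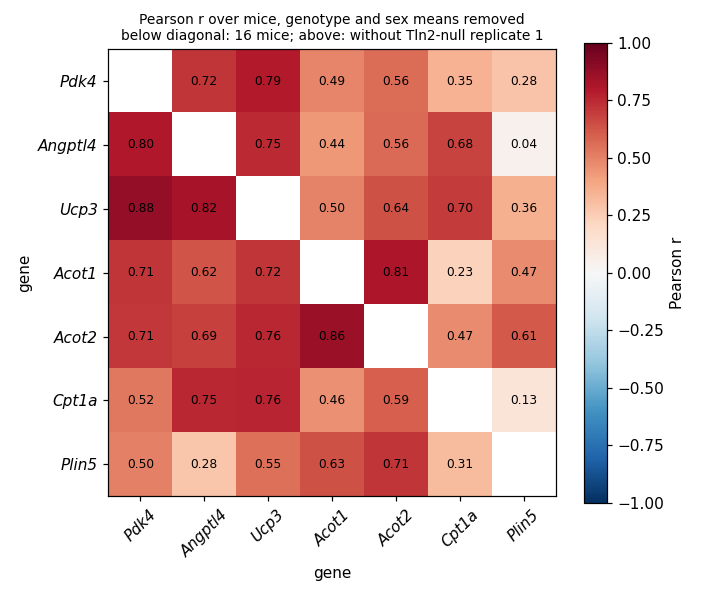
Pearson's r between each pair of the 7 transcripts over mice, genotype and sex means removed; below the diagonal all 16 mice, above it the 15 mice without Tln2-null replicate 1. Below the diagonal the pairs among Pdk4, Angptl4 and Ucp3 lie at 0.802 to 0.879, and Acot1 with Acot2 at 0.863. They are not set off as blocks: Cpt1a has 0.763 with Ucp3 and 0.75 with Angptl4, and Ucp3 with Acot2 has 0.757. Plin5 with Angptl4 is the palest cell on either side (0.28 and 0.041).

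The title number, whose meaning the labels do not state, went with the set in 1 direction. All 7 had a negative slope over mice with genotype and sex as terms, while 49.2% of the genes tested had a positive one. The slope passed in 0 members, while 6.34% of the genes tested were called, and had an unadjusted p under 0.05 in 1 member and in 24.2% of the genes. That member was Plin5, at -0.033 ± 0.0098 log2 units per number (SE, edgeR adjusted p = 0.0552). The other 6 had adjusted p values of 0.274 to 0.701. Title number 1 belongs to Tln2-null replicate 1, the highest mouse for all 7, and slopes without it were not fitted. The numbers ran from 3 to 18 in the knockout and from 1 to 14 in the Tln2-null mice, so they are not balanced between genotypes.

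Other genes were ranked by Pearson's r with the mean of the 7 standardised members, over the 12010 genes at 2 CPM or more and 16 mice. Among the closest were Art4 at r = 0.896, the lipid droplet-associated dehydrogenase gene Hsd17b11 at 0.888, the autophagy gene Wdr45 at 0.882 and the droplet coat gene Plin2 at 0.873. Chrna2 (0.859), the triglyceride lipase gene Pnpla2 (0.851) and the growth factor gene Fgf1 (0.846) were also among them. Most opposite were the cardiac transcription factor gene Tbx20 at -0.824, the leukocyte gene Lsp1 at -0.817, Ube2z at -0.797 and Cbx5 at -0.788. Without Tln2-null replicate 1 each of these was weaker. The values were then 0.807 for Art4, 0.783 for Hsd17b11, 0.797 for Wdr45, 0.834 for Plin2, 0.764 for Chrna2, 0.722 for Pnpla2 and 0.687 for Fgf1. They were -0.667 for Tbx20, -0.703 for Lsp1, -0.717 for Ube2z and -0.622 for Cbx5. Chrna2, at a mean of 2.24 CPM, had 7.579 CPM in that mouse and 0.6394 to 3.762 CPM in the others.

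By list, 17 of 29 other PPAR target genes of lipid handling (58.6%) had r above 0.5 with the members, where 3.59% of all genes did, and their median r was 0.533 against 0.00939 for all genes. The list's figures without Tln2-null replicate 1 were 18 of 29 and 0.558. Besides Plin2, genes of this list close to the members were Ehhadh (0.799), Cpt1b (0.781, of uncertain level as above), the long-chain acyl-CoA synthetase gene Acsl1 (0.76), the malonyl-CoA decarboxylase gene Mlycd (0.748) and the carnitine carrier gene Slc25a20 (0.711). Lipid droplet and lipolysis genes, a list that shares Plin2 and Plin4 with it, followed with 7 of 17 above 0.5. The FoxO and glucocorticoid list, so often highest in Tln2-null replicate 1, had 2 of 26 above 0.5, and its median r of 0.249 was -0.0721 without that mouse. The receptors and cofactors had 0 of 17 above 0.5, with Ppara at -0.167, Pparg at -0.0666, Ppard at 0.324 and the coactivator Ppargc1a at -0.227. Clock genes had 0 of 19. The 3 adipocyte markers at 2 CPM or more, Lipe, Aqp7 and Thrsp, had a median r of 0.539, and of 0.374 without Tln2-null replicate 1. Those tested below 2 CPM were negative, Cidec at -0.229, Car3 at -0.227 and Cfd at -0.0765. The part of fat cells in the pattern was not tested. Of 10 macrophage markers 4 were below -0.5, where 313 of the 12010 genes were. These were the lysozyme gene Lyz2 and the complement genes C1qa, C1qb and C1qc, which code for subunits of 1 complex. The remaining markers ran from -0.387 (Mrc1) to 0.258 (Lyve1). The part of macrophages in the pattern was not tested.

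**Figure D5:**
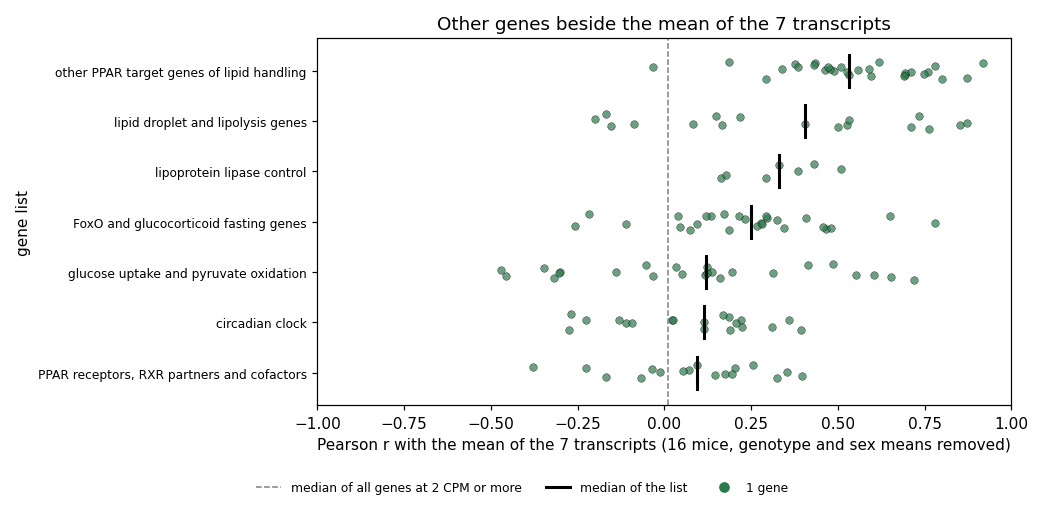
Pearson's r of single genes (points) with the mean of the 7 transcripts over 16 mice, genotype and sex means removed, by gene list; thick bars are list medians and the dashed line the median of all 12010 genes at 2 CPM or more (0.00939). Of the 7 lists drawn, the other PPAR target genes lie furthest right, with a median of 0.533, and the receptors and cofactors near the dashed line, at 0.0931.

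Between the genotypes no gene of the surrounding pathway lists passed either. Of 30 tested other PPAR target genes 0 passed in edgeR and 0 had an unadjusted p under 0.05, with 21 higher and 9 lower in the knockout and a median log2 fold change of 0.07, against -0.0027 over all genes tested. Those of lowest p were the dehydrogenase genes Acadm (1450 ± 162 CPM in the knockout and 1330 ± 83.1 CPM in Tln2-null mice, SD, n = 8 each; log2 fold change 0.12 ± 0.06) and Acadl (0.10 ± 0.06), the trifunctional protein gene Hadhb (0.13 ± 0.07) and the lipoprotein receptor gene Vldlr (0.16 ± 0.09), each with an edgeR adjusted p of 0.9355. Of the 17 receptors and cofactors 11 were higher and 6 lower, and 1 had an unadjusted p under 0.05, the orphan receptor gene Esrrg, at 76.4 ± 3.61 CPM in the knockout and 68.3 ± 6.26 CPM in the Tln2-null mice (log2 fold change 0.16 ± 0.06, edgeR adjusted p = 0.799). Ppara ran from 108.1 to 153.3 CPM in the knockout and from 99.67 to 193.9 CPM in the Tln2-null mice.

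Lipoprotein lipase control, on which Angptl4 acts, had 4 genes higher and 4 lower of 8 tested, with Lpl itself at 3970 ± 338 CPM in the knockout and 3730 ± 428 CPM in the Tln2-null mice (log2 fold change 0.09 ± 0.07, edgeR adjusted p = 0.942). Pyruvate oxidation and glucose uptake, on which Pdk4 acts, had 19 higher and 5 lower of 24. The pyruvate dehydrogenase subunit gene Pdha1 had the lowest p of these, at 1770 ± 140 CPM in the knockout and 1620 ± 51.1 CPM in the Tln2-null mice (0.12 ± 0.05, adjusted p = 0.916). Lipid droplet and lipolysis genes split 9 to 9 of 18 and the FoxO and glucocorticoid list 13 to 13 of 26, where the cell cycle inhibitor gene Cdkn1a was lowest in p (52.6 ± 18 CPM in the knockout and 78.6 ± 21.4 CPM in Tln2-null mice, -0.58 ± 0.20, adjusted p = 0.799). Relatives of the members split 10 to 11 of 21, the most different being Angptl7, at 8.99 ± 9.02 CPM in the knockout and 23.7 ± 26 CPM in the Tln2-null mice (-1.43 ± 0.61, edgeR adjusted p = 0.9355).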

How the data were processed

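Total RNA from the left ventricle was sequenced with 1 library per mouse, from directional libraries per the labels' protocols. The submitters' processing notes name DRAGEN, DESeq2 and mm10, without roles or versions. The deposited count table, made by the authors, holds whole-number counts for 24982 gene symbols, which were used as deposited (26 symbols had become dates, none a member's). The authors' deposited normalized table holds a signal for 16405 genes, each count divided by a size factor per sample. Whole reads recovered from it (100% of values whole to within 0.001) equalled the counts in all 16384 genes named in both tables. edgeR on them called 0 genes between genotypes, which is no separate check because the numbers are the same.

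Counts were tested with edgeR 4.0.16 (R 4.3.3) over the 13775 genes left by filterByExpr, scaled by TMM, in a quasi-likelihood model of genotype and sex, or with 1 mean per genotype and sex, with Benjamini-Hochberg adjustment and calls under 0.05. SEs were worked back from the F statistic (effect size divided by the root of F). The 95% intervals follow from them by a normal curve, so they are approximate and somewhat too narrow. Libraries held 11161766 to 19221673 counts. The median SE of the genotype effect across genes was 0.0908 (log2). Groups and sexes come from the labels, and replicate numbers follow record order. Spread and co-variation used log2(CPM + 0.5). Exon lengths and shared 50-base stretches come from GENCODE M21, positions and promoters from RefSeq GRCm38.p6. The fit was tested on simulated data. DESeq2 1.42.0, limma 3.58.1, other filters and scalings, the title number as a covariate and the omission of libraries were tried as alternatives. Named genes were the 7 members, up to 4 genes of lowest p per pathway list, the 8 genes most like the members and the 4 most opposite. Not every gene this rule names is reported here. Genes picked outside that rule were chosen after their values were seen, such as the largest r within a list. The members and lists were chosen with earlier results of these data known.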

Additional observations from a re-analysis of the deposited data

Results flagged for a closer look

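Each member was searched for a mouse far from the others of its group, over the 8 mice of a genotype and over the 4 of a genotype and sex, by the ratio of the gap to the nearest mouse to the range (Dixon). Such a mouse was found in 6 of 42 groups, each time the highest of its group. The mark is set so that about 5% of independent groups from a normal curve meet it. Here CPM were used without logs, the groups of 4 lie within those of 8, and the members vary together. The 6 of 42 therefore cannot be weighed against that 5%. In 4 of the 6 the mouse was Tln2-null replicate 1. It had 2960 CPM of Pdk4 and 338.8 CPM of Ucp3 among the 8 Tln2-null mice. It had 61.54 CPM of Acot1, which stood apart both among the 8 Tln2-null mice and among the 4 Tln2-null males. Knockout replicate 5 stood apart among the 8 knockout mice with 131.4 CPM of Acot2. Knockout replicate 6 stood apart among the 4 knockout males with 118.2 CPM of Ucp3. The causes were not tested.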

How the results depend on the processing

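In 27 alternative settings, 16 of them leaving out 1 library each, the members gave 917 values, of which 858 kept their direction, 59 turned and 0 passed the threshold (lowest adjusted p 0.553). The setting on reads recovered from the normalized table repeats the counts, so its values could hardly turn. Genes called between genotypes numbered 0 in edgeR, against 17 with DESeq2, 11 with limma-voom and quality weights, 1 with no filter on low counts and 5 without both libraries apart in clock genes. They ranged from 0 to 7 with 1 library left out (7 without knockout replicate 8, 3 without Tln2-null replicate 1, 1 without Tln2-null replicate 4). Between the sexes DESeq2 called 21 genes, against 12 in edgeR, and within females 2, against 0, where leaving out 1 library gave 0 to 1 (1 without Tln2-null replicate 4). The causes were not tested.

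The turned values, all of log2 fold changes that did not pass, are these. With limma-voom Ucp3 was 0.2103 and Acot2 0.06395, and within females Acot1 was -0.01451 and Plin5 0.05635. With limma on log2(deposited normalized value + 1) Angptl4 was 0.04027 and Ucp3 0.1891, and within females Plin5 was 0.007777. With the title number as a covariate Pdk4 was 0.1453, Angptl4 0.1168, Ucp3 0.3567 and Acot2 0.02231, and within females Plin5 was 0.06882. Within females Plin5 was also 0.001263 with at least 1 CPM in 8 samples. Without both clock libraries Acot2 was 0.05856, and within females Plin5 was 0.008114. Without the 4 females with Y-linked reads Cpt1a was -0.04496, within females Acot1 was -0.5786 and Acot2 -0.2355, and the difference between the sexes of Acot2 was -0.09358. That setting leaves 1 knockout female, which is assumed to vary like the other mice. With 1 library left out Pdk4 ranged from -0.4315 to 0.2211, Angptl4 from -0.3535 to 0.285, Ucp3 from -0.2357 to 0.4208, Acot2 from -0.1089 to 0.08231 and Cpt1a from -0.02389 to 0.1051. Within males Ucp3 ranged from -1.047 to 0.08187 and Acot2 from -0.277 to 0.03959. Within females Acot1 ranged from -0.2444 to 0.2944, Acot2 from -0.07068 to 0.2087 and Plin5 from -0.07356 to 0.1326. Between the sexes Acot1 ranged from -0.4561 to 0.123.

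The median r over member pairs ranged from 0.5009 (without Tln2-null replicate 1) to 0.7451, against 0.7065 over all mice, with libraries rescaled after each omission. No paired analysis was possible because replicate numbers were given in record order and pair no mice. Angptl4 and Acot1 had the fewest counts of the members. With 8 mice per genotype, the 95% interval of Angptl4 was -1.02 to 0.87 on the log2 scale. That of Pdk4, which had more counts in every mouse, was -1.07 to 0.55. The part of count depth in these widths was not tested.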
